A study of Mus musculus with 2 samples.

Results

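The genes Runx1, Runx2 and Runx3 and their partner Cbfb were examined for binding of STAT5, the transcription factor that the IL7 receptor activates in B cell progenitors. Binding was measured by chromatin immunoprecipitation and sequencing (ChIP-seq), in which an anti-STAT5 antibody recovers the DNA fragments that STAT5 is bound to. A peak was assigned to a gene when its midpoint lay inside the gene or within 50 kb of either end. This rule gave 15 of the 5908 listed peaks, at 3 of the 4 genes, out of 21779 protein-coding genes on assembled chromosomes.

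The chromatin came from lymph nodes of a leukemic mouse on a C57BL/6 background, with the genotype Stat5b-CAxBlnk+/-. Stat5b-CA is a constitutively active form of Stat5b, and Blnk+/- denotes a mouse heterozygous for Blnk, whose product relays signals from the pre-B cell receptor. The cells, labelled B cell progenitor leukemia, were stimulated with 10 ng/mL of murine IL7 for 30 minutes and fixed in 1% formaldehyde for 10 minutes. There was 1 STAT5 ChIP library and 1 input library of the same genotype, tissue and treatment, made without antibody. No library of unstimulated, non-leukemic or transgene-free cells was analysed here, the promoter of the transgene is not given in the labels, and the mouse's age is not given either.

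RUNX proteins bind DNA through the Runt domain, and CBFβ, the product of Cbfb, does not touch DNA itself but binds the Runt domain and strengthens its grip. RUNX1 is needed for the first blood stem cells and for the passage of B cell progenitors to later stages, RUNX2 for bone formation, and RUNX3 for cytotoxic T cells, among other roles. RUNX1 and CBFB are among the genes most often rearranged in human acute leukemia. Each Runx gene is transcribed from a distal start and from a proximal start further into the gene, which give proteins with different first residues.

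RefSeq promoter windows (build GRCm38.p6, 250 bases before to 50 after an annotated start) were found for all 4 genes: 2 for Runx1, 1 for Runx2, 2 for Runx3 and 1 for Cbfb. The distal windows of the 3 Runx genes are shown first because they share a run of bases. All 3 hold the same run of 18 bases with 2 copies of ACCACA, the reverse complement of the RUNX core TGTGGT. In the lines that follow, each stretch reads 5′ to 3′ on the gene's own strand, and capitals mark the ACCACA copies.
Runx1, minus strand, chr16:92826027-92826052: taaacaACCACAgaACCACAagttgg
Runx2, minus strand, chr17:44814585-44814610: caaacaACCACAgaACCACAagtgcg
Runx3, plus strand, chr4:135120505-135120530: ccctcaACCACAgaACCACAaggcca

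The run lay 27 to 44 bases after the start in Runx1 and 22 to 39 bases after it in Runx2, counting the start as base 1. In Runx3 it lay before the start, at bases -136 to -119. Of 21263 promoter windows of protein-coding genes, searched on both strands, 3 held the run (0.0141%), and these were the windows of Runx1, Runx2 and Runx3. The run was taken from these 3 windows after the sequences had been seen, so their matches were given beforehand and this is a description. TGTGGT on either strand occurred in 15% of the windows. No listed STAT5 peak overlapped any of the 3 distal windows, where 2.93% of all promoter windows were overlapped by one.

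The proximal start of Runx1 is shown because it was the 1 of the 6 member windows that a STAT5 peak overlapped. These are the 250 bases before that start, on the minus strand, with GGAA and its reverse complement TTCC, the core that ETS factors bind, in capitals.
Runx1, minus strand, chr16:92697330-92697579: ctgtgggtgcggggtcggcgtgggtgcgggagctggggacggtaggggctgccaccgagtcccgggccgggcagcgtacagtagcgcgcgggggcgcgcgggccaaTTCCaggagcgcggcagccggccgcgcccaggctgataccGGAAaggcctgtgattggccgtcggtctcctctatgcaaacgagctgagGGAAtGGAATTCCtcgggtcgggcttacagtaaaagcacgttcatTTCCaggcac

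Runx1 (chromosome 16, 92601466 to 92826074, minus strand) carried most of the family's STAT5 peaks. Its window held 10 peaks (95% exact Poisson interval 4.80 to 18.4, counting error only), of which 8 lay inside the gene and 2 in the flanks. Runx3 (chromosome 4, 135120645 to 135177990, plus strand) had 3 peaks (0.619 to 8.77), 1 of them inside. Runx2 (chromosome 17, 44495987 to 44814797, minus strand) had 2 peaks (0.242 to 7.22), both inside. Cbfb (chromosome 8, 105170674 to 105217989, plus strand) had no listed peak, which says that none passed the authors' unstated threshold and not that STAT5 was absent. The order by count was Runx1, Runx3, Runx2 and Cbfb. The intervals of all 3 genes with a peak overlapped, and with 1 library the spread between animals is unknown.

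As background, 33.0% of all protein-coding genes (7193 of 21779) had at least 1 peak in a window drawn the same way, and the median gene had 0. Of the 4 genes described here 3 had a peak (75%, exact 95% interval 19.4 to 99.4), and the interval included 33.0%. The median length of the 4 was 141.0 kb, against 17.2 kb over all genes, and the shares were not adjusted for length. With the gene body alone the same 3 had a peak, beside 9.85% of all genes. They also did with flanks of 20 kb, beside 21.6%. With flanks of 100 kb all 4 had one, beside 45.8%. At least 2 peaks occurred at 13.0% of genes, at least 3 at 5.78%, and at least 10, the count of Runx1, at 0.0781%. Runx1 was thus 1 of 17 genes with 10 or more peaks, and these 17 lay in 13 separate stretches because neighbours share peaks. Cish, an inhibitor of cytokine receptors and a known STAT5 target taken as the positive control, also had 10. Its window was shorter, with 9.42 peaks per 100 kb against 3.08 for Runx1, and 2 of its peaks lay inside the gene. Long genes seldom had as many: of the 843 genes at least as long as Runx1, 39.1% had any peak, their median was 0, and 6 (0.712%) had 10 or more. Among the 514 genes at least as long as Runx2, 18.9% had 2 or more peaks, and among the 4353 at least as long as Runx3, 9.46% had 3 or more.

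The windows differ in length, so the counts were also set per 100 kb. Runx1 had 3.08 peaks per 100 kb of its 324.6 kb window (1.48 to 5.67), where chromosome 16 had 0.300 per 100 kb between its first and last protein-coding gene. Runx3 had 1.91 peaks per 100 kb (0.393 to 5.57), against 0.221 on chromosome 4. Runx2 had 0.478 peaks per 100 kb (0.0578 to 1.73), and the 0.287 of chromosome 17 lay within that interval. By density, 1.61% of protein-coding genes stood as high as Runx1 or higher, 5.36% as high as Runx3 and 30.7% as high as Runx2. The intervals of Runx1 and Runx3 lay above the density of their chromosomes, and that of Runx2 included it. For Runx3 this rests on 3 peaks. The chromosome densities cover the ground between genes as well as gene windows. Peaks lie in groups and are not independent, so the intervals of the 3 genes are too narrow. A difference from the chromosome was not tested.

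**Figure D1:**
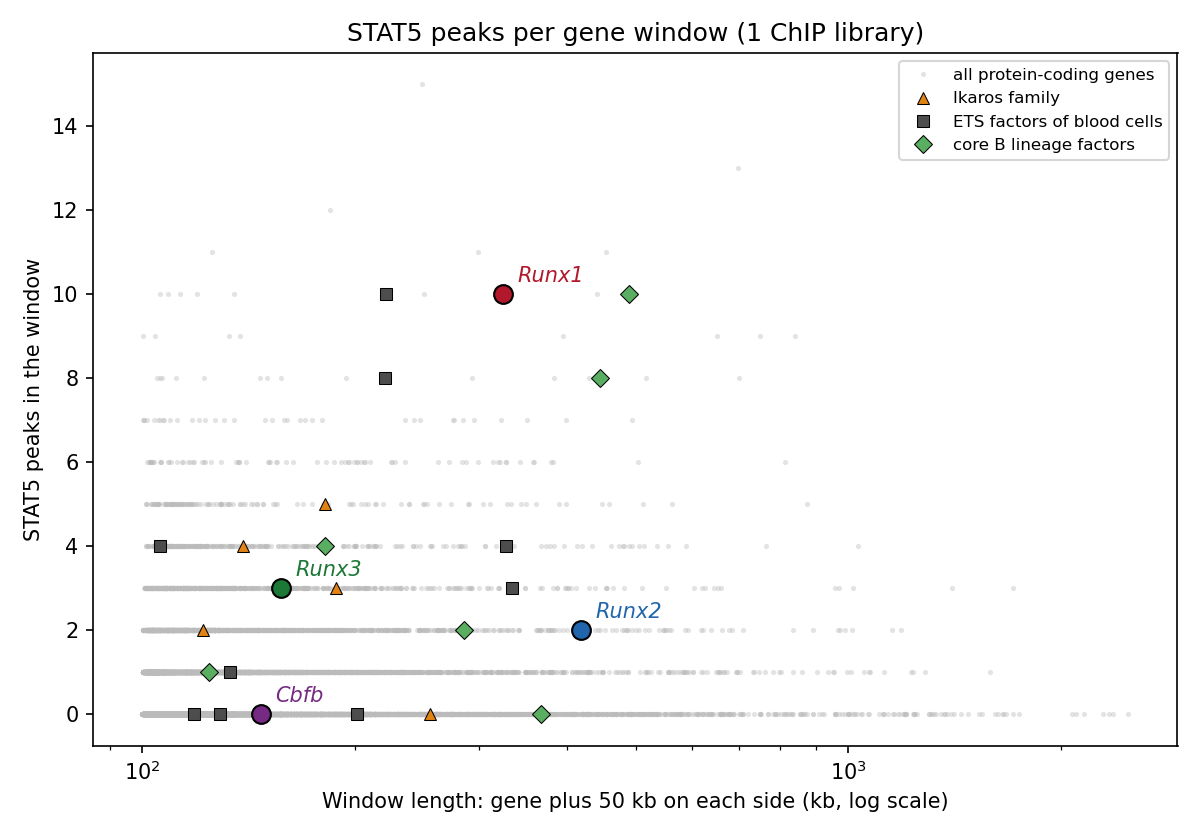
STAT5 peaks per window (vertical axis) against window length, the gene plus 50 kb on each side (horizontal axis, kb, log scale), for all 21779 protein-coding genes (grey), the 4 genes described here (large circles) and 3 other factor families. Runx1 stands at 10 peaks, Runx3 at 3, Runx2 at 2 and Cbfb at 0.

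Within Runx1 the peaks lay near both annotated starts and at sites between and after them. The peak at the proximal start (92697172 to 92697630, 459 bp wide) held the whole 300-base promoter window, with its midpoint upstream, at -72 bp from the start. A second peak (92696631 to 92696973, 343 bp) lay 527 bp after that start, so the pair sat 599 bp apart. A promoter window was overlapped by a peak in 2.93% of 21263 cases and lay wholly inside one in 0.367% (78 windows).

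The distal start of Runx1 had its peaks just downstream. A peak of 281 bp (92824913 to 92825193) lay 1.02 kb after the start, and one of 490 bp (92821748 to 92822237), the widest of the 15, lay 4.08 kb after it. Both starts of Runx1 thus had 2 peak midpoints within 5 kb, where 7.54% of annotated starts had any.

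The other Runx1 peaks lay far from a start. One of 330 bp (92787061 to 92787390) lay between the starts, 38.8 kb after the distal one, and had place 249 in the deposited order, the earliest of the 15. What the lines were sorted by is unknown, so a place is not a measure of binding. Peaks in the earliest lines were mostly wider than the list's median of 295 bp, so place and width were not independent. A group of 3 peaks within 4.63 kb (92644828 to 92649460) lay past the proximal start, at 48.0, 49.4 and 52.3 kb from it, with widths of 217, 297 and 422 bp. In the flanks, a peak of 447 bp (92868466 to 92868912) lay 42.6 kb before the distal start, and one of 221 bp (92573974 to 92574194) lay 27.4 kb past the 3′ end. Between the proximal start's peak and the peak at 38.8 kb lay 89.8 kb without a listed midpoint, the longest such stretch in the window. Exons and introns were not available here, so no peak was assigned to either.

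**Figure D2:**
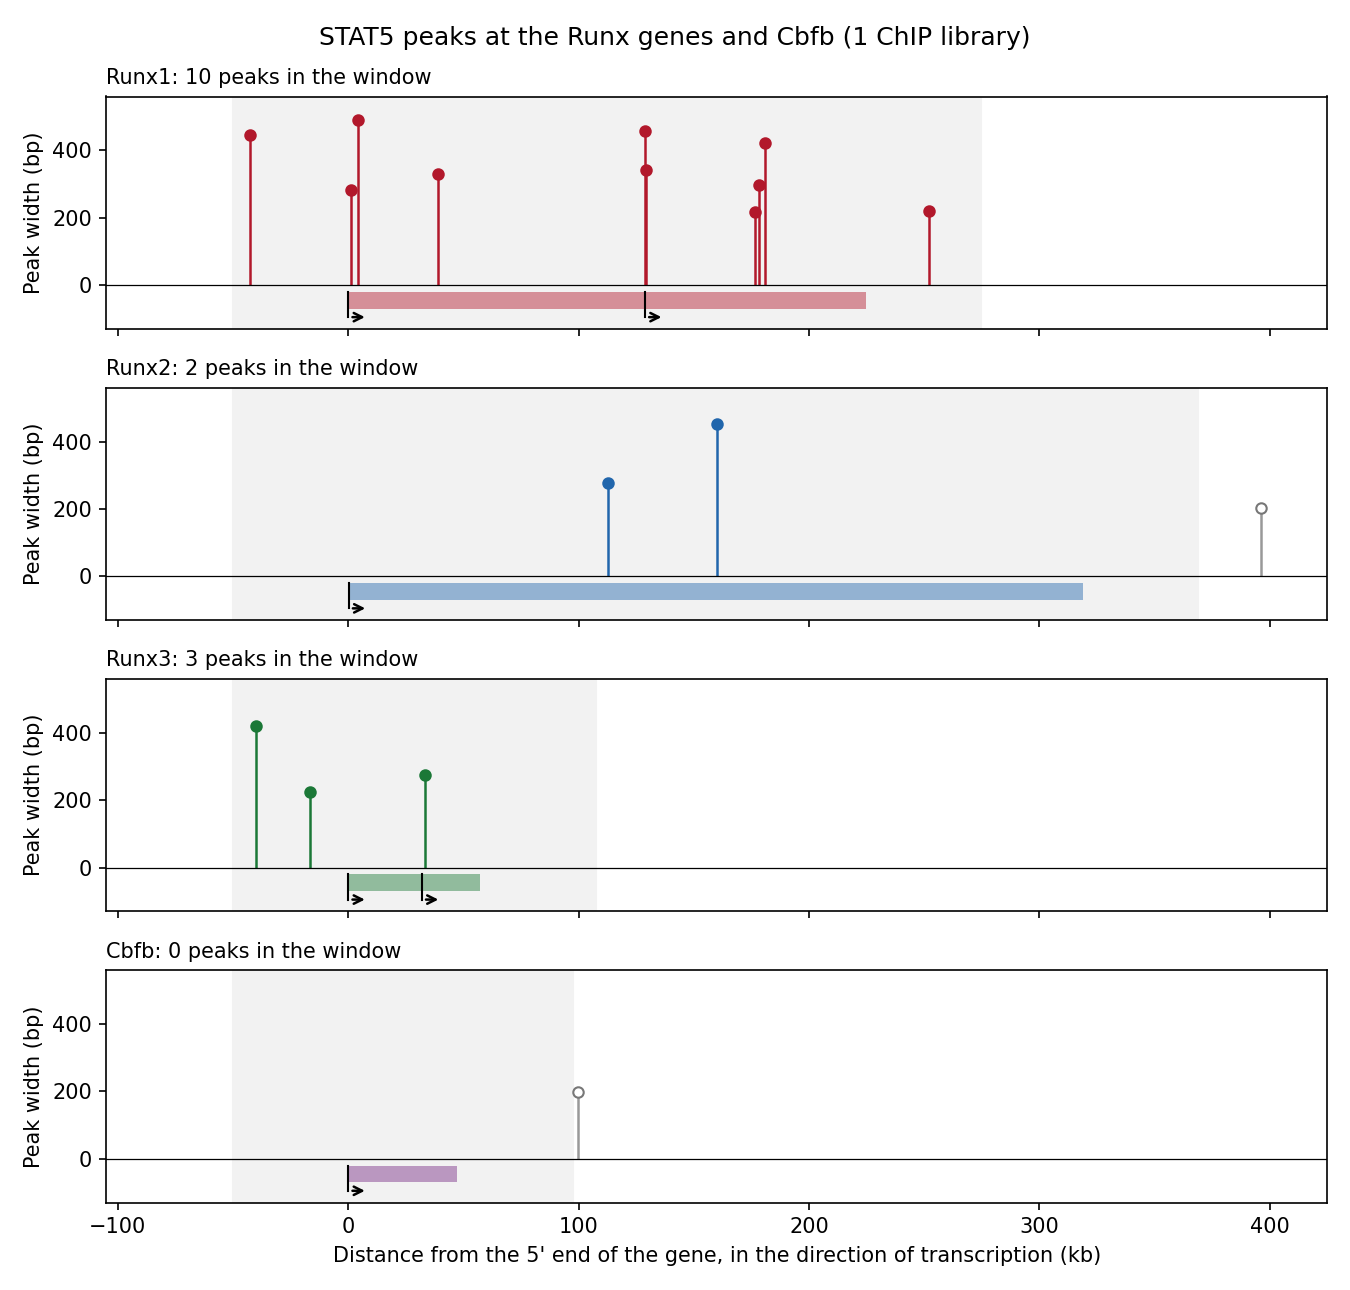
STAT5 peaks at each gene, placed by distance from the gene's 5′ end in the direction of transcription (horizontal axis, kb) and drawn to their width (vertical axis, bp). Bars are gene bodies, arrows annotated starts, grey areas the windows, and open circles peaks outside the window. Runx1 has peaks near both starts, Runx3 has 1 that lies 1.55 kb after the proximal start, Runx2 has none near either end and Cbfb has none.

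No other protein-coding gene reached into the Runx1 window. The next ones were Clic6, which encodes a chloride channel protein, 60.2 kb past the 3′ end, and Setd4, which encodes a methyltransferase, 757.4 kb before the 5′ end. All 10 peaks had Runx1 as their nearest protein-coding gene. The flank peak past the 3′ end was the one with a near rival, since it lay 27.4 kb from Runx1 and 32.8 kb from Clic6, whose own window counted it as well.

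Runx3, the T cell and neuronal member, had a peak close to its proximal start too. This peak (135153957 to 135154232, 276 bp) lay 1.55 kb after the proximal start and was the one peak inside the gene. The other 2 lay before the distal start, at 16.7 kb (135103845 to 135104068, 224 bp) and 40.0 kb (135080395 to 135080814, 420 bp). The 40.0 kb peak was the widest and, at place 767, the earliest in the deposited order of the 3, while the others stood at places 4448 and 4150. All 3 had Runx3 as the nearest protein-coding gene. Clic4, a relative of Clic6, began 36.0 kb past the 3′ end, and no peak lay inside it.

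Runx2 had its peaks deep inside the gene. They lay 112.4 kb (44702088 to 44702365, 278 bp) and 159.8 kb (44654620 to 44655071, 452 bp) after the 1 annotated start in the table, 47.4 kb apart. Their places in the deposited order were 3202 and 3899. Neither that start nor the 3′ end had a listed peak within 50 kb, and the stretch from the second peak to the end of the window, 208.9 kb, held none. No proximal start of Runx2 was among the promoter windows, so distances to one were not measured. Supt3, which encodes a subunit of transcriptional coactivator complexes and overlaps the 5′ part of Runx2, had no peak in its own window.

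Cbfb, the shared partner subunit, had no listed peak within 50 kb. The closest one lay 52.5 kb past its 3′ end, just outside the window, inside Hsf4, a heat shock factor gene (105270398 to 105270595, 198 bp, place 5088). The member peaks nearest to the limit on the inner side were those at 42.6 kb from Runx1 and 40.0 kb from Runx3, and the next outside was one 77.1 kb past the 3′ end of Runx2. Of the 5 other protein-coding genes in the Cbfb window, Ces4a had no peak within 50 kb. The windows of D230025D16Rik, B3gnt9, Tradd and Fbxl8 each held 1, and this was the same peak, the one inside Hsf4. The Cbfb window thus held 5 other protein-coding genes and that of Runx1 none.

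The 15 peaks were of ordinary width. Their median width was 330 bp, in a range of 217 to 490 bp. Over all peaks the median was 295 bp, and the middle of the distribution, between the quartiles, spanned 236 to 388 bp. The list's widest peak was 3660 bp. Of the 15 peaks, 9 reached the median width of the list and 7 stood in the first 2954 lines. The Runx1 peaks had a median width of 336.5 bp and ranged from place 249 to place 5535. A Runx1 peak had its closest neighbour among all peaks at a median of 3.0 kb. The same distance was 23.4 kb for Runx3, 47.4 kb for Runx2 and 30.4 kb over all peaks on assembled chromosomes. Runx1 peaks thus lay closer together than the median peak, a value that is not independent of its count of 10 peaks in 1 window. The Runx2 value is only the distance between its 2 peaks.

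**Figure D3:**
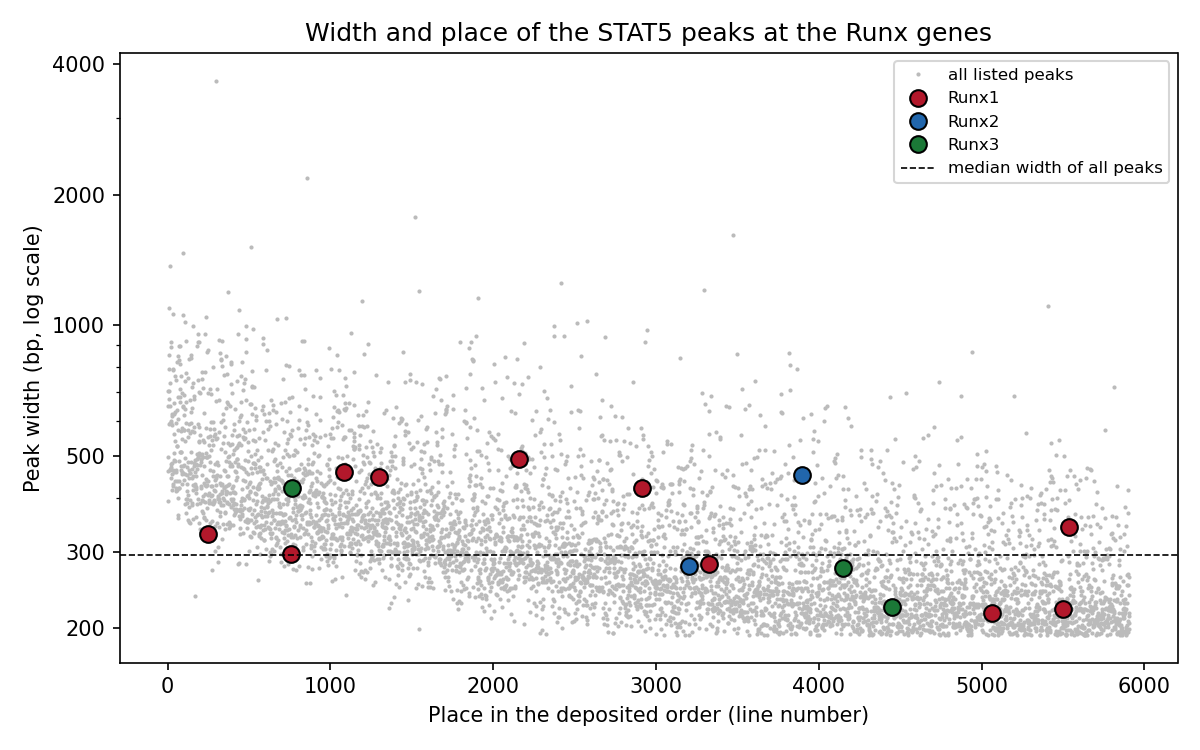
Width (vertical axis, bp, log scale) of every listed peak against its place in the deposited order (horizontal axis, line number), with the peaks of Runx1, Runx2 and Runx3 as large circles and the median width of 295 bp as a dashed line. The 15 peaks are spread over the order, from place 249 to place 5535, at widths of 217 to 490 bp.

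STAT5 dimers bind TTCNNNGAA, and this motif was searched on both strands in the promoter windows. It was found in none of the 6 member windows, and in 7.69% of all 21263 windows. Of the 78 windows that lay wholly inside a peak, 51 held TTCNNNGAA (65.4%, exact 95% interval 53.8 to 75.8), and the proximal window of Runx1 was among the 27 without it. The 300 bases do not cover the whole 459 bp peak, so the remaining bases were not searched. GGAA, which can overlap TTCNNNGAA, occurred 6 times in the proximal Runx1 window, all in the 250 bases printed above, and in 95.7% of all windows. The RUNX core TGTGGT occurred 2 times in the distal Runx1 window, 3 times in that of Runx2, 2 times in the distal window of Runx3, and in neither proximal window nor that of Cbfb.

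The 2 kinds of Runx start differed in base composition as well. G and C made up 45% of the distal window of Runx1, 45.3% of that of Runx2 and 63.7% of the distal window of Runx3. The proximal windows of Runx1 and Runx3 had 69% and 77.3%, and that of Cbfb 69.7%, against a median of 56.3% over all windows. CG pairs numbered 2 in each of the distal windows of Runx1 and Runx2 and 8 in that of Runx3, against 35 and 45 in the proximal ones.

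Other transcription factor families of blood cells had counts in the same range. The share of all protein-coding genes to read their counts against is again 33.0%, and with 5 to 9 genes a family the exact 95% intervals are wide. In the Ikaros family, zinc finger factors of lymphocyte development, 4 of 5 genes had a peak (interval 28.4 to 99.5%), led by Ikzf3 with 5, Ikzf4 with 4 and Ikzf1 with 3, and Ikzf2 had none. Among ETS factors, 6 of 9 had a peak (29.9 to 92.5%), led by Ets1 with 10, Fli1 with 8, and Erg and Spib with 4 each, while Ets2, Elf1 and Gabpa had none. Among core B lineage factors, 5 of 6 had a peak (35.9 to 99.6%), led by Ebf1 with 10, Tcf4 with 8 and Foxo1 with 4, and Tcf12 had none. The intervals of the Ikaros family and the ETS factors included 33.0%, and that of the core B lineage factors did not. Median gene lengths were 81.4, 101.3 and 226.8 kb in that order, against 17.2 kb over all genes, and length was not adjusted for. Of genes at least as long as Runx1 (224.6 kb), 39.1% had a peak, a share inside the interval of the core B lineage factors. Runx1 stood at the same count as Ets1 and Ebf1, the highest of the 20 genes of these 3 families. Per 100 kb of window Ets1 had 4.51 peaks, Runx1 3.08 and Ebf1 2.04. Of the 10 peaks each, 9 lay inside Ets1, 8 inside Runx1 and 4 inside Ebf1. Pooled over their windows, the Runx genes and Cbfb had 1.43 peaks per 100 kb, the Ikaros family 1.58, the ETS factors 1.67 and the core B lineage factors 1.32. Differences between these families were not tested.

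**Figure D4:**
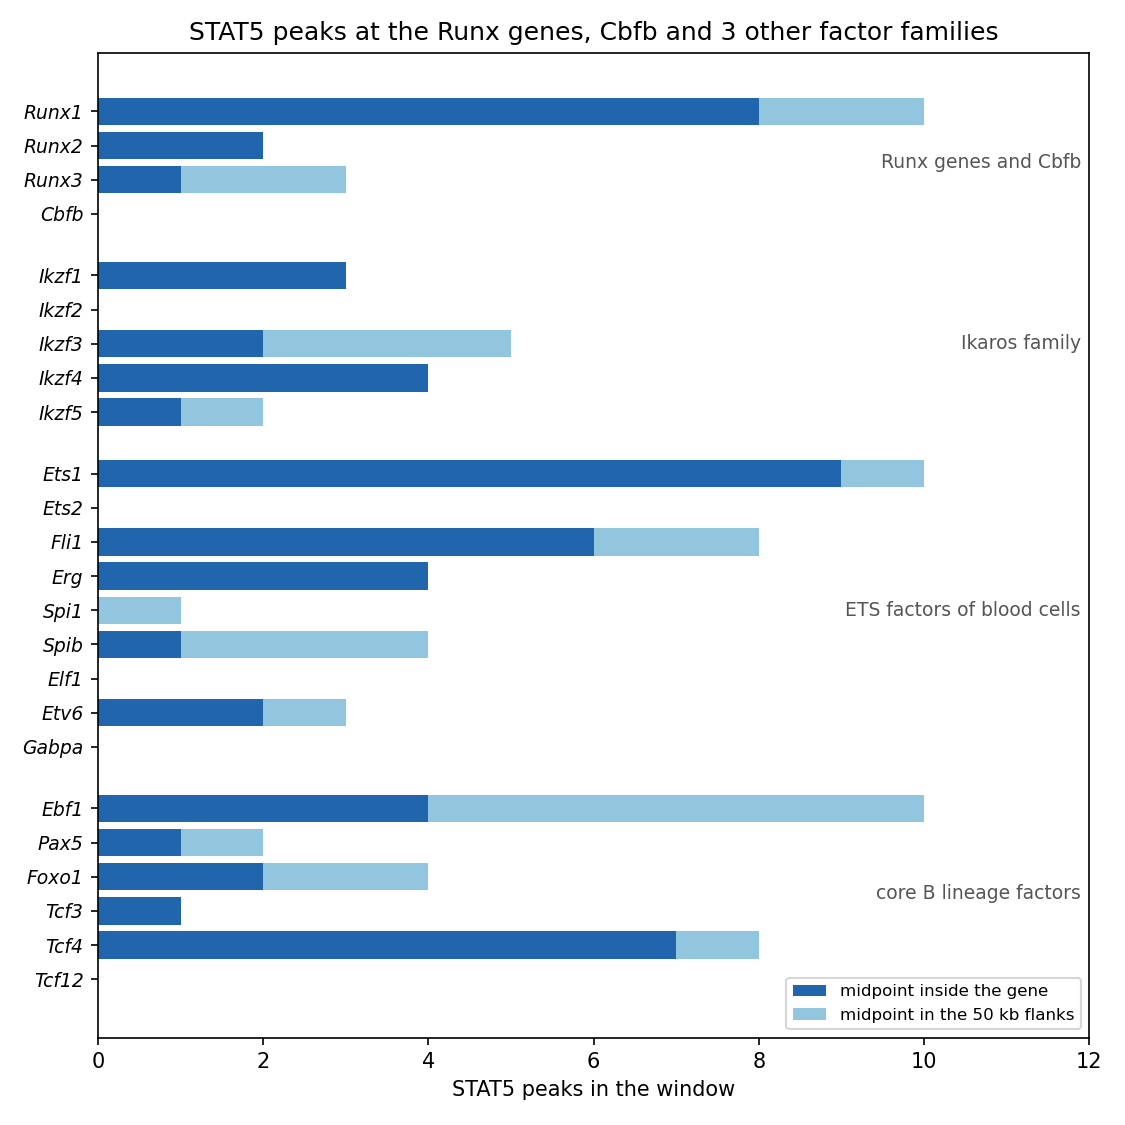
Number of STAT5 peaks in the window of each gene (horizontal axis), split into midpoints inside the gene (dark) and in the 50 kb flanks (light), for the Runx genes, Cbfb and 3 other factor families. Runx1, Ets1 and Ebf1 each reach 10, and Cbfb, Ikzf2, Ets2, Elf1, Gabpa and Tcf12 have none.

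Genes of the RUNX pathway were followed through a list of 51, made up of proteins that work with RUNX factors, leukemia fusion partners and 15 genes that RUNX factors are known to regulate. A peak was present at 31 of them (60.8%, exact 95% interval 46.1 to 74.2), beside 33.0% of all protein-coding genes. Ets1, Fli1, Spi1, Ebf1, Pax5, Etv6 and Spib were also in the families above, and each had a peak. The list was chosen with earlier results of these data known. The share is thus a description, is not independent of those families, and was not tested. The median gene length of the list was 30.9 kb, against 17.2 kb over all genes, and the list included 2 genes on chromosome X. Neighbours shared peaks, so the 87 counts came from 83 distinct peaks.

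Among the factors that bind DNA beside RUNX proteins, 7 of 12 had a peak (58.3%, exact 95% interval 27.7 to 84.8, beside 33.0% of all genes). Ets1 and Ebf1 had 10 each and Fli1 8. Lmo2, Myb and Pax5 had 2 each and Spi1 1. Gata1, Gata2, Gata3, Tal1 and Cebpa had none.

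Among corepressors, 6 of 10 had a peak (60%, exact 95% interval 26.2 to 87.8, which includes the 33.0% of all genes). Tle5 had 3, Tle3 and Sin3a 2 each, and Tle1, Tle2 and Hdac1 1 each. Tle genes encode Groucho proteins, which RUNX factors recruit through their C-terminal end. None of these peaks lay inside the gene itself, where 9.85% of all genes had one. Tle4, Hdac3, Ncor1 and Suv39h1 had none. Among coactivators and modifying enzymes, 5 of 8 had a peak (62.5%, interval 24.5 to 91.5), led by Cdk6, a cyclin-dependent kinase, with 5, all inside the gene. Kmt2a had 2, and Kat6a, Prmt1 and Hipk2 had 1 each. The histone acetyltransferase genes Ep300, Crebbp and Kat6b had none.

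Of the genes fused to or related to RUNX1 or CBFB fusion partners in leukemia, 2 of 6 had a peak. Cbfa2t3, a corepressor gene, had 5 and Etv6, the ETS gene fused to RUNX1 in childhood B cell leukemia, had 3. Runx1t1, Cbfa2t2, Mecom and Myh11, the fusion partner of CBFB, had none. That share was 33.3% (exact 95% interval 4.33 to 77.7), beside 33.0% of all genes. With 6 genes the interval is too wide to place the share near or far from that value.

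Of 15 genes that RUNX factors are known to regulate, 11 had a peak (73.3%, exact 95% interval 44.9 to 92.2). The share over all protein-coding genes was 33.0%. Blk, Rag1 and Spib had 1 peak each inside the gene, and the others with a peak had theirs only in the flanks. Over all protein-coding genes, 9.85% had a peak inside the gene. Neighbours shared peaks, so the 24 counts came from 20 distinct peaks and the interval is too narrow. Cdkn1a, a cell cycle inhibitor gene, led with 5, all outside the gene, followed by Spib with 4. Rag1 and Rag2, which encode the recombinase of antigen receptor genes, each counted the same 3 peaks. Dntt, which encodes the polymerase that adds bases at those joints, had 2 and Elane 2. Blk, Cd79a and Mpo had 1 each, and Csf2 and Il3, which are neighbours, counted 1 shared peak. Csf1r, Cd4, Zbtb7b and Cebpe had none.

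For each Runx gene the 3 protein-coding genes most like it were taken as those with the same peak count and the smallest difference in window length. For Runx1 they were Epb41l4b, Ets1 and Rere, whose windows differed from it by 73.4, 103.0 and 115.8 kb, out of 10 other genes with 10 peaks. For Runx2 they were Apbb2, Dnah7a and Zfp423, out of 1581 genes with 2 peaks, and for Runx3 Ypel2, Tbc1d22b and Etv5, out of 662 with 3. The counts of Runx2 and Runx3 were thus each shared by more genes than that of Runx1. The likeness rests on 1 library.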

How the data were processed

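The deposited file lists 5908 peak intervals (start and end in bp on mm10, with a name), with no height, fold or significance, for 1 STAT5 ChIP library. There is no value for the input library. Per the submitters' processing notes, mm10, MACS2, Picard and BWA 0.7.4 were used, with no roles stated. The threshold, filters, read depth and use of the input were not given in these sources.

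Positions are 1-based. Genes came from a RefSeq table of GRCm38.p6, which has mm10 coordinates. Genes starting below 3000000 bp on any chromosome but Y were left out, as they may carry positions of unplaced sequences, which left 21779 protein-coding genes. Of the peaks, 5901 lay on assembled chromosomes. Promoter windows and strands came from RefSeq sequences (GRCm38.p6). A STAT motif form with a longer gap was also searched and matched no promoter window of the 4 genes. Counts were made with Python 3.11.15, pandas 2.3.3 and SciPy 1.17.1, and tested on simulated peaks at 200 genes, all of whose counts were recovered. With 1 library there was no test between samples. Intervals are exact Poisson or Clopper-Pearson at 95% and cover counting error only. A peak list holds no expression values, so the labelled cell type was not checked against marker levels.

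The 4 genes and the gene lists were chosen with earlier results of these data known. Named were the 4 genes, all their peaks, neighbours in the windows, Cish, the 3 highest and the empty members of each list, and the 3 most alike genes. Other list members named were chosen after their values were seen. Alternatives were flanks of 0, 20 and 100 kb, any overlap, wider peaks, the first lines, joined peaks and the nearest gene.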

Additional observations from a re-analysis of the deposited data

How the results depend on the processing

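Of 43 recomputed values, 31 stayed within 1.5 times the reported count, or inside the interval of the share of all genes, and 12 did not. With the flank reduced to 0 kb, Runx3 had 1 peak and 9.85% of all protein-coding genes had one. With 20 kb that share was 21.6%, and with 100 kb it was 45.8% and Cbfb had 1 peak. Among peaks at least as wide as the median, Runx2 had 1, Runx3 had 1 and the 4 genes together 9. In the first 50% of the deposited order, Runx1 had 6, Runx2 had 0, Runx3 had 1 and the 4 genes together 7. These settings lower or raise counts by their construction, since they use shorter or longer windows or fewer peaks. At Cbfb, which had 0 peaks, a shorter window or fewer peaks could only return 0. Those values are counted among the 31 and say nothing of stability. Runx1 had the highest count of the 4 genes under all 8 alternatives, from 6 to 10. Peaks under 1 kb apart joined to 1 left 9 at Runx1. No paired analysis was possible because there was 1 ChIP library, so no replicate could be left out. Read depth is unknown, and a weaker site may be missing from the list.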

Other observations

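Counted by peaks inside the gene alone, Runx1 was 1 of 12 genes with 8 or more, out of 21779 protein-coding genes. These were chosen after the counts were seen, and the others were Dst, Maml3, Epb41l4b, Foxp1, Tenm4, Ets1, Cradd, Cyth1, Rad51b, Trio and Arid1b. Ets1, Runx1 and Foxp1 encode transcription factors, Maml3 a coactivator of Notch signalling and Arid1b a subunit of a chromatin remodelling complex. Dst and Trio encode a cytoskeletal linker and a guanine nucleotide exchange factor. A shared function of the 12 was not tested, and gene length was not adjusted for. No microRNA hairpin of the RefSeq table lay in the windows of Runx1, Runx2, Runx3 or Cbfb (0 in each).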
